A study of Danio rerio with 8 samples.

Results

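Gene expression in the distal trunk of solvent-treated zebrafish larvae at 60 hours post fertilization (hpf) was set against the same tissue at 48 hpf. The genes described were those with a mean normalized count of 10 or more over the 8 conditions of the study, 21950 of the 24345 genes in the table. For each of them the log2 ratio was taken of the value at 60 hpf plus 1 over the value at 48 hpf plus 1, so a positive ratio means a higher value at 60 hpf.

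Between these times the zebrafish embryo normally hatches and becomes a free larva. The segmented muscle of the trunk and tail is already contracting and its fibres go on maturing, while sensory organs of the lateral line, deposited along the flank by a migrating primordium, fill with mechanosensory hair cells. In the same period the median fin fold is stiffened by collagenous rods called actinotrichia, spinal axons begin to be myelinated, red blood cells of the first wave circulate, and the skin gains ionocytes that exchange salts and acid with the water.

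The larvae were wild type of the Tropical 5D line. Their chorions were removed at 4 hpf, and they were kept in the dark at 28.5 °C in 100 µL of medium per well of 96-well plates with 1% DMSO, the solvent, from 6 to 8 hpf on. Both groups, at 60 hpf and at 48 hpf, share this solvent, and no solvent-free animals are among the samples used here. Distal trunk was taken by resection at the pigment gap by the caudal peduncle, the narrow part before the tail fin. Each condition consists of 4 pools of 50 animals, read as stranded libraries with single-end reads of 100 bp. Control tissue of 72 and 96 hpf gives later values for named genes. Tissue exposed to benzo[k]fluoranthene, an aromatic hydrocarbon, entered only the filter on low values.

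The deposited table holds 1 value per gene and condition, the mean of the 4 pools. The spread between pools is therefore unknown, no difference below carries an error or a test, and a value carried by 1 pool cannot be seen. Genes at least 2-fold apart are counted as a description of size. In bulk tissue fewer cells of a type and less RNA per cell cannot be told apart. Normalized counts are not divided by transcript length, so values are compared between times for 1 gene and not between genes. Summed over the table they came to 89533865 at 60 hpf and 89287976 at 48 hpf. The 10 genes with the largest values made up 19.6% of the sum at 60 hpf and 18.8% at 48 hpf.

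Most of the transcriptome was at nearly the same level at both times, and 82.9% of the genes lay within 1.5-fold. At least 2-fold higher at 60 hpf were 1114 genes (5.08%), and 418 genes (1.90%) were at least 2-fold lower. The log2 ratio was above 0 for 49.9% of genes and below 0 for 50.1%. Such differences were more frequent among genes of low value. In genes with a mean of 10 to 50 over the 8 conditions 14.4% were higher by 2-fold or more and 8.87% lower by as much, whereas in genes with a mean of 1000 or more the shares were 1.54% and 0.275%. The later steps held fewer genes beyond 2-fold, with 423 higher and 341 lower at 72 hpf over 60 hpf, and 310 higher and 241 lower at 96 hpf over 72 hpf. These intervals share samples with the one described here, and their last step spans a longer time.

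**Figure D1:**
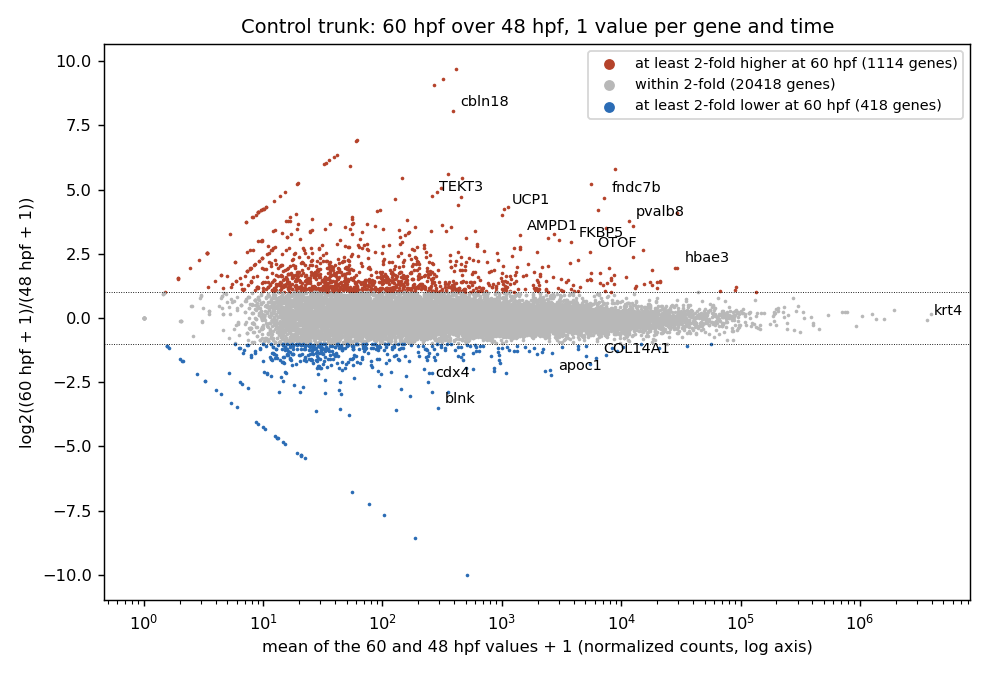
Each point is 1 of the 21950 genes, with the mean of its control values at 60 and 48 hpf plus 1 on a log axis and its log2 ratio of 60 over 48 hpf on the vertical axis. The 1114 genes at least 2-fold higher at 60 hpf are red, the 418 at least 2-fold lower are blue, and the dotted lines mark 2-fold. The straight diagonal rows of points at the far left and the most extreme points include genes listed at 0 at 1 of these times.

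The identity of the tissue was checked with marker genes. Of 46 markers of trunk tissues 31 were matched, to 37 gene identifiers, and all of these passed the filter. They included krt4, a keratin of the outer skin, with 3505630 at 60 hpf and 3732111 at 48 hpf, and and2, an actinodin of the actinotrichia, with 2164660.4 at 60 hpf and 1731428 at 48 hpf. Of 18 markers of organs in front of the resection plane 12 were matched, to 12 identifiers, and 7 of these passed the filter. Their summed values were 629 at 60 hpf and 857 at 48 hpf, with 9 of 12 lower at 60 hpf. The hatching gland protease ctslb was listed at 0 at 60 hpf and had 6.65 at 48 hpf. Whether the cut fell at the same level at both times was not tested. A shift in its level cannot be told apart from age. Genes were further grouped into 55 lists of tissues, pathways and complexes, and their ratios are shown list by list. Counts of 1 to 3 genes beyond 2-fold in a list are small and are not read as a result. In a number of lists they lie above the shares of 5.08% and 1.90% over all genes. Examples are 3 of 29 macrophage and neutrophil identifiers lower and 3 of 16 myelin identifiers higher.

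**Figure D2:**
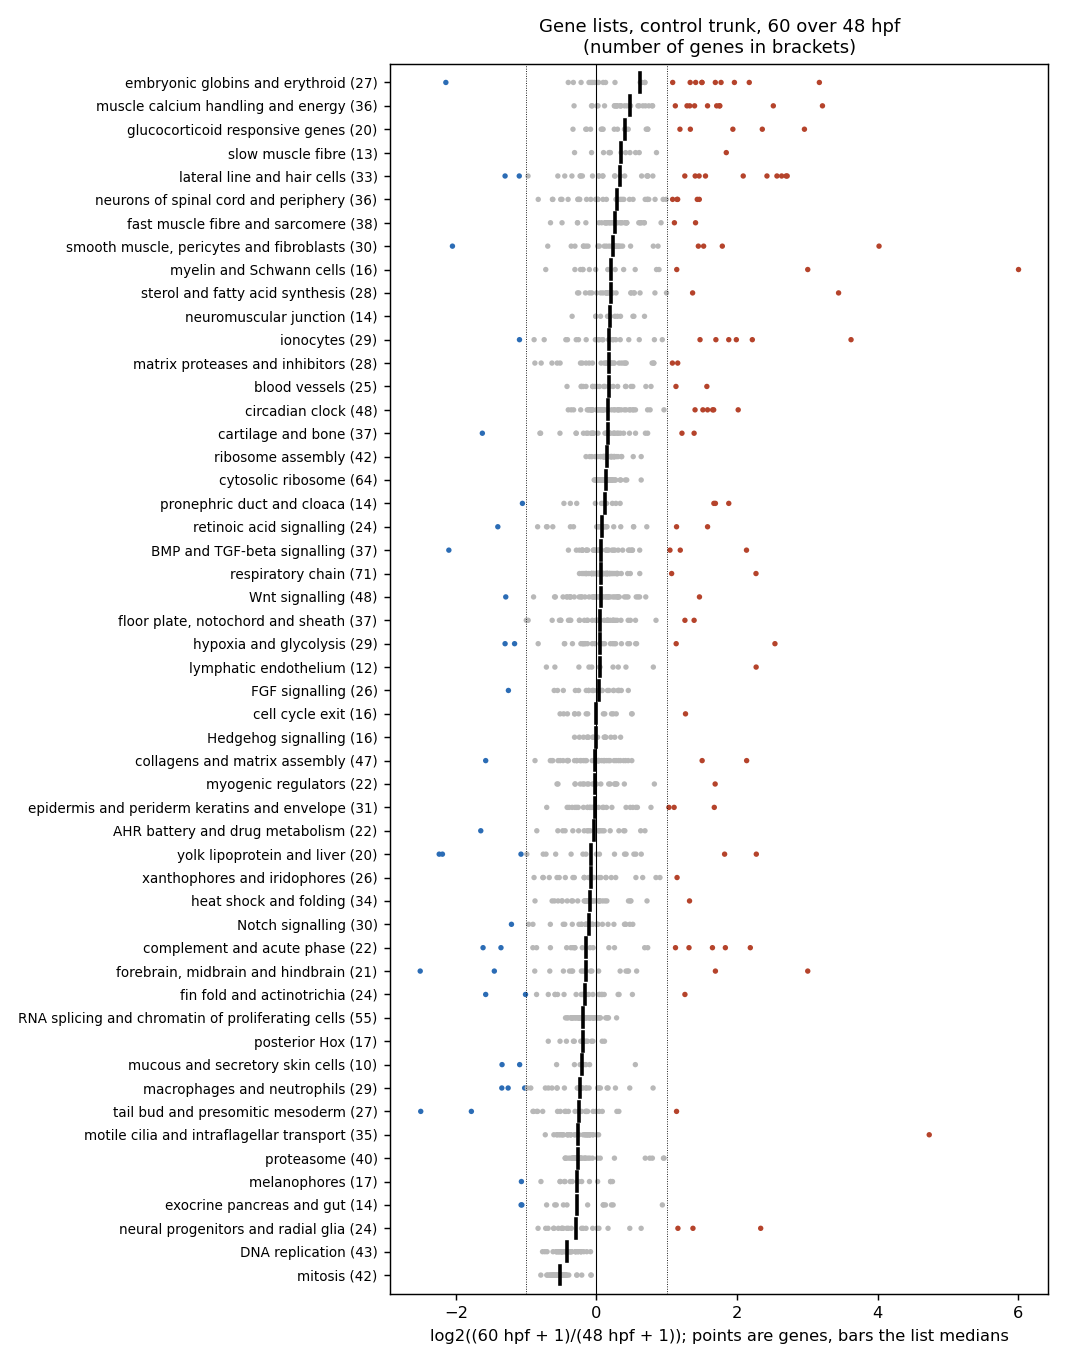
Each row is a gene list with at least 10 tested genes, each point 1 gene at its log2 ratio of 60 over 48 hpf, and each black bar the median of the list. Points at least 2-fold higher at 60 hpf are red and those at least 2-fold lower are blue. The lists run from embryonic globins and erythroid genes with a median of 0.62 at the top to mitosis with a median of -0.52 at the bottom.

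Genes of mechanosensory hair cells were among the largest differences. Of 33 tested identifiers in a list of lateral line and hair cell genes, 10 were at least 2-fold higher at 60 hpf and 2 at least 2-fold lower, beside 5.08% and 1.90% of all genes, and the median log2 ratio was 0.34, beside a median of 0.00 over all genes. OTOF (ENSDARG00000020581), which encodes otoferlin, the calcium sensor of synaptic vesicle release in hair cells, had 1567, 9301, 13492 and 12191 at 48, 60, 72 and 96 hpf. This is 5.93-fold higher at 60 hpf than at 48 hpf, and most of the later level was already present at 60 hpf. SLC17A8, which encodes the vesicular glutamate transporter of hair cells, stood at 386 at 60 hpf, against 57.9 at 48 hpf. The small calcium-binding protein genes s100t and s100s had 26200.4 at 60 hpf, against 4216 at 48 hpf for s100t, and 1612 at 60 hpf, against 608 at 48 hpf for s100s. Both thus lay on the same side as the synaptic genes.

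Regulators of hair cells were higher as well, while transduction genes went both ways. POU4F3, a transcription factor needed for hair cell survival, had 90.9 at 60 hpf, against 16.1 at 48 hpf, and gfi1aa, a zinc finger repressor of the same cells, had 326 at 60 hpf, against 75.9 at 48 hpf. Their log2 ratios were 2.43 and 2.09. For ATOH1, the proneural factor that starts hair cell fate, the ratio was smaller, with 489 at 60 hpf, against 294 at 48 hpf. Among parts of the mechanotransduction complex, lhfpl5b had 128 at 60 hpf, against 18.8 at 48 hpf, and TMC2 under the identifier ENSDARG00000030311 had 219 at 60 hpf, against 74.2 at 48 hpf. TMC1, which encodes the related channel subunit, was on the other side with 52.8 at 60 hpf, against 77.7 at 48 hpf, and so was PCDH15, whose protein forms the tip link, with 164 at 60 hpf, against 351 at 48 hpf. CDH23, encoding the other tip link cadherin, had 19.2 at 60 hpf, against 24.7 at 48 hpf.

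Genes of the migrating primordium and of supporting cells did not follow the hair cell genes. CXCR4 under ENSDARG00000041959, a chemokine receptor that steers the primordium, had 2386, 969, 504 and 878 at 48, 60, 72 and 96 hpf, the lowest log2 ratio of the list at -1.30. The second CXCR4 identifier, ENSDARG00000057633, had 2562 at 60 hpf, against 3501 at 48 hpf, and cldnb, a claudin of primordium and skin, had 12327 at 60 hpf, against 11589.7 at 48 hpf. SOX2, a factor of supporting cells, stood at 2485 at 60 hpf, against 2424 at 48 hpf. These last 2 genes were within 1.1-fold. Outside the list, pvalb8, which encodes a parvalbumin calcium buffer, had 1586, 21528, 54949 and 45381 at 48, 60, 72 and 96 hpf, and CHRNA9, a subunit of the cholinergic receptor on hair cells, had 248 at 60 hpf, against 32.8 at 48 hpf. TEKT3, a tektin of ciliary microtubules, had 17.8, 501, 750.4 and 697 at 48, 60, 72 and 96 hpf, a 26.6-fold difference between 60 and 48 hpf. pvalb8, CHRNA9 and TEKT3 were picked for their values.

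**Figure D3:**
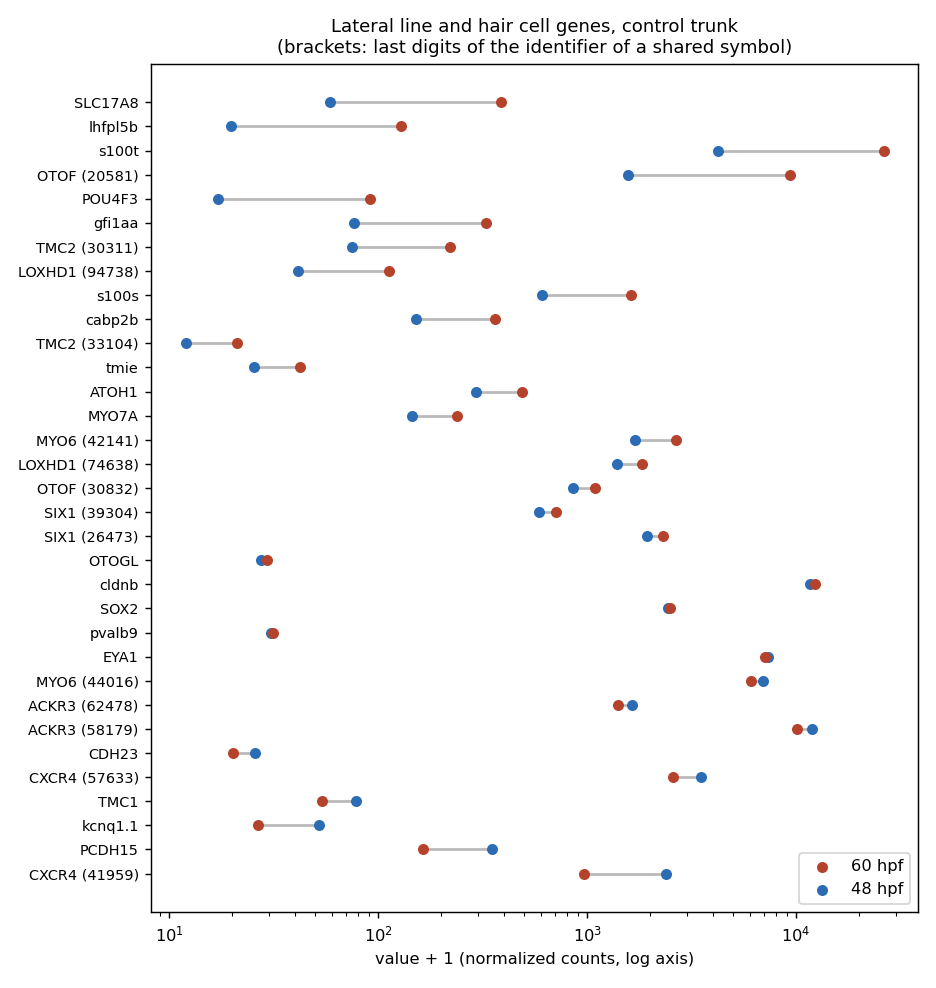
Values plus 1 in normalized counts on a log axis for the 33 tested lateral line and hair cell identifiers, red at 60 hpf and blue at 48 hpf, joined by a grey line and ordered by their log2 ratio. SLC17A8 at the top had 386 at 60 hpf and 57.9 at 48 hpf, and CXCR4 (ENSDARG00000041959) at the bottom had 969 at 60 hpf and 2386 at 48 hpf.

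Muscle genes were higher at 60 hpf as a group, and most of all those of calcium handling and energy supply. Of 36 identifiers in that list 10 were higher and 0 lower by 2-fold or more, beside 5.08% and 1.90% of all genes. A log2 ratio above 0 was held by 33, and the median was 0.48. AMPD1, the muscle AMP deaminase, had 275, 2562, 3138 and 2531 at 48, 60, 72 and 96 hpf. CKMT2, the mitochondrial creatine kinase of muscle, had 270.0, 1550.0, 3136 and 2856 at 48, 60, 72 and 96 hpf. Between 60 and 48 hpf AMPD1 thus differed 9.29-fold and CKMT2 5.72-fold. AMPD1 at 60 hpf was close to its later values, while CKMT2 was about midway to them. Both tested identifiers of PFKM, the muscle phosphofructokinase of glycolysis, were higher, with 862 at 60 hpf, against 263 at 48 hpf for ENSDARG00000060797, and 792 at 60 hpf, against 323 at 48 hpf for ENSDARG00000014179. The myoglobin gene mb had 786 at 60 hpf, against 298 at 48 hpf.

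The parvalbumins, which bind calcium as muscle relaxes, were higher at 60 hpf in all 3 muscle members named. pvalb1 had 2562, 8656, 5706 and 4206 at 48, 60, 72 and 96 hpf, and pvalb2 had 3022, 10165, 6516 and 5416 at 48, 60, 72 and 96 hpf. Both were highest at 60 hpf of the 4 times. pvalb4 had 8814, 22129.7, 24279.6 and 18214 at 48, 60, 72 and 96 hpf, with its highest value at 72 hpf. The calcium pump genes atp2a1 and atp2a1l had 164294 at 60 hpf, against 101308 at 48 hpf for atp2a1, and 949.5 at 60 hpf, against 317 at 48 hpf for atp2a1l. The cytosolic creatine kinase gene ckma differed less, with 37508 at 60 hpf, against 30728 at 48 hpf.

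Contractile genes were higher by less. Of 38 fast fibre and sarcomere identifiers 2 were higher by 2-fold or more and 0 lower by 2-fold or more, but 33 had a log2 ratio above 0 and 30 had their highest control value at 60 hpf, which 16.5% of all genes had. The median log2 ratio was 0.27. myhz2, a fast myosin heavy chain, had 91227, 117524, 66132 and 75409 at 48, 60, 72 and 96 hpf, and MYBPC2, a myosin-binding protein of fast fibres, had 110.1 at 60 hpf, against 40.8 at 48 hpf. TNNT3, fast troponin T, was split over identifiers, with 16675 at 60 hpf, against 8814 at 48 hpf for ENSDARG00000068457, and 6767 at 60 hpf, against 8145 at 48 hpf for ENSDARG00000030270. Near-identical copies share reads in the estimated counts, so single members of such families, among them troponins, myosins, globins and keratins, are uncertain.

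The slow fibre list had 13 tested identifiers, of which 1 was higher by 2-fold or more and 0 lower by 2-fold or more, with 11 above 0 and a median of 0.35. That gene was TNNI1 (ENSDARG00000052708), slow troponin I, with 1281 at 60 hpf, against 355 at 48 hpf. At the neuromuscular junction none of 14 identifiers reached 2-fold, and the median was 0.19. ACHE, the acetylcholinesterase that ends transmission there, had 7385 at 60 hpf, against 4596 at 48 hpf, while RAPSN, which clusters the receptors, had 926 at 60 hpf, against 829.8 at 48 hpf. Among regulators of muscle formation the median of 22 identifiers was -0.02, and 0.088 with own symbols alone. The factors of early commitment, MYOD1 with 1308 at 60 hpf, against 1495 at 48 hpf, and MYOG with 1239 at 60 hpf, against 1286 at 48 hpf, were near their 48 hpf level. MYF6, a later member of the family, had 253 at 60 hpf, against 142 at 48 hpf. mstnb, which encodes the growth inhibitor myostatin, had 36.9, 121, 349.6 and 461 at 48, 60, 72 and 96 hpf and was the only member of the list beyond 2-fold.

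Red blood cell genes had the highest median of the lists with at least 10 tested genes, 0.62. Of 27 identifiers 10 were higher and 1 lower by 2-fold or more, beside 5.08% and 1.90% of all genes. The highest control value was that of 60 hpf for 15. The list summed to 126527 at 60 hpf and 62540.4 at 48 hpf. The alpha globin gene hbae3 had 12065, 47051, 28870.2 and 14388 at 48, 60, 72 and 96 hpf, and hbae1.1 had 11513, 30645, 18432 and 12336 at 48, 60, 72 and 96 hpf. The rate-limiting enzyme of heme synthesis in red cells, alas2, followed the same course with 748, 2417, 1408 and 1014 at 48, 60, 72 and 96 hpf. All 3 were highest at 60 hpf. nt5c2l1, an erythroid nucleotidase gene, had 1222 at 60 hpf, against 269.9 at 48 hpf, and SLC4A1 under ENSDARG00000012881, the anion exchanger of the red cell membrane, had 3162 at 60 hpf, against 1489.8 at 48 hpf. The other SLC4A1 identifier, ENSDARG00000024560, had 646 at 60 hpf, against 683 at 48 hpf. Below 0 were 8 of the list, and the lowest ratio was that of a beta globin, hbbe3, with 1759, 398, 35.4 and 322 at 48, 60, 72 and 96 hpf. Other beta-type globins, under the symbol HBE1 and outside the list, were higher. ENSDARG00000087390 had 30741 at 60 hpf, against 11193 at 48 hpf, and ENSDARG00000045143 had 5416 at 60 hpf, against 665 at 48 hpf.

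Blood vessel genes differed less. Of 25 identifiers 2 were higher by 2-fold or more and 0 lower by 2-fold or more, with a median of 0.17. These were plvapb, a protein of endothelial pores, with 3201 at 60 hpf, against 1460.4 at 48 hpf, and ANGPT2, an angiopoietin, with 61.2 at 60 hpf, against 19.9 at 48 hpf. The endothelial cadherin gene cdh5 had 1251 at 60 hpf, against 1455 at 48 hpf. A list of 12 lymphatic genes had a median of 0.05, with 7 above 0 and 5 below. In it lyve1a, a hyaluronan receptor, had 16.7, 84.5, 261 and 286 at 48, 60, 72 and 96 hpf. It was the only one beyond 2-fold. lyve1b had 32.0 at 60 hpf, against 31.1 at 48 hpf, and stab2 was lower, with 1393 at 60 hpf, against 2282 at 48 hpf.

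Genes of macrophages and neutrophils were lower at 60 hpf, with 21 of 29 identifiers below 0 and a median of -0.23. None was higher by 2-fold or more and 3 were lower by 2-fold or more. lyz, the lysozyme of these cells, had 3780.4, 1487, 367 and 760.1 at 48, 60, 72 and 96 hpf. The other 2 were identifiers that carry the symbol MFAP4, with 25.9 at 60 hpf, against 63.2 at 48 hpf for ENSDARG00000038681, and 69.0 at 60 hpf, against 141 at 48 hpf for ENSDARG00000089667. blnk, an adaptor of B cell receptor signalling in mammals and no member of the list, had 534, 45.6, 42.3 and 49.0 at 48, 60, 72 and 96 hpf. Complement genes went both ways, with 5 of 22 higher and 2 lower by 2-fold or more, beside 5.08% and 1.90% of all genes. Below 0 were 13, and the median was -0.15. Members beyond 2-fold included genes of very low value, where such differences were more frequent. Among these, c3a.3 had 8.61 at 60 hpf, against 1.11 at 48 hpf, and c9 was listed at 0 at 60 hpf, against 2.06 at 48 hpf. cfd, complement factor D, had 719, 2260.0, 6120.0 and 6548 at 48, 60, 72 and 96 hpf, while cfb, factor B, had 41.2 at 60 hpf, against 107 at 48 hpf.

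In the nervous system, the median gene of differentiated neurons was higher at 60 hpf and that of progenitors lower. Of 36 neuronal identifiers 5 were higher and 0 lower by 2-fold or more, beside 5.08% and 1.90% of all genes. The highest control value was that of 60 hpf for 19, and the median was 0.30. SNCG, a synuclein, had 2762, 7620.1, 7179.7 and 6828 at 48, 60, 72 and 96 hpf. SLC6A5, the glycine transporter of inhibitory spinal neurons, had 25.6, 70.9, 45.5 and 60.1 at 48, 60, 72 and 96 hpf, and ELAVL4, an RNA-binding protein of neurons, had 275, 584, 382 and 343 at 48, 60, 72 and 96 hpf. SLC6A5 and ELAVL4 were highest at 60 hpf. The related gene ELAVL3, expressed as neurons are born, had 3982, 3315, 1211 and 2158 at 48, 60, 72 and 96 hpf. The summed value of the list was lower at 60 hpf, with 50683 at 60 hpf and 56509 at 48 hpf, so the median and the sum differ in direction. With the 6 identifiers matched by their own symbol alone the median was -0.12.

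Of 24 identifiers of neural progenitors and radial glia 16 were below 0, with a median of -0.28. SOX3, a progenitor factor, had 2456 at 60 hpf, against 3287 at 48 hpf, and OLIG2, a factor of motor neuron and oligodendrocyte precursors, had 379.6 at 60 hpf, against 579 at 48 hpf. Glial genes of the same list were on the other side. SLC1A3, a glutamate transporter of astroglia, had 174, 883, 907 and 642 at 48, 60, 72 and 96 hpf, FABP7 under ENSDARG00000007697, a fatty acid carrier of radial glia, had 1828 at 60 hpf, against 705 at 48 hpf, and GFAP, the glial filament, had 11930.3 at 60 hpf, against 7676 at 48 hpf. The 3 identifiers at least 2-fold higher were SLC1A3 and both of FABP7.

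Some myelin genes were much higher at 60 hpf. mbpa, myelin basic protein, was listed at 0 at 48 hpf and had 63.2, 525 and 613 at 60, 72 and 96 hpf. EGR2, the transcription factor that switches Schwann cells to myelination, had 1.02, 15.24, 72.3 and 65.2 at 48, 60, 72 and 96 hpf. They were among the 3 of 16 identifiers at least 2-fold higher, none was at least 2-fold lower, and the list median was 0.21. pou3f1, a factor of the promyelinating stage that precedes EGR2, had 1537, 932, 478 and 876 at 48, 60, 72 and 96 hpf. cldnk, a claudin of myelin, had 273 at 60 hpf, against 311 at 48 hpf.

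**Figure D4:**
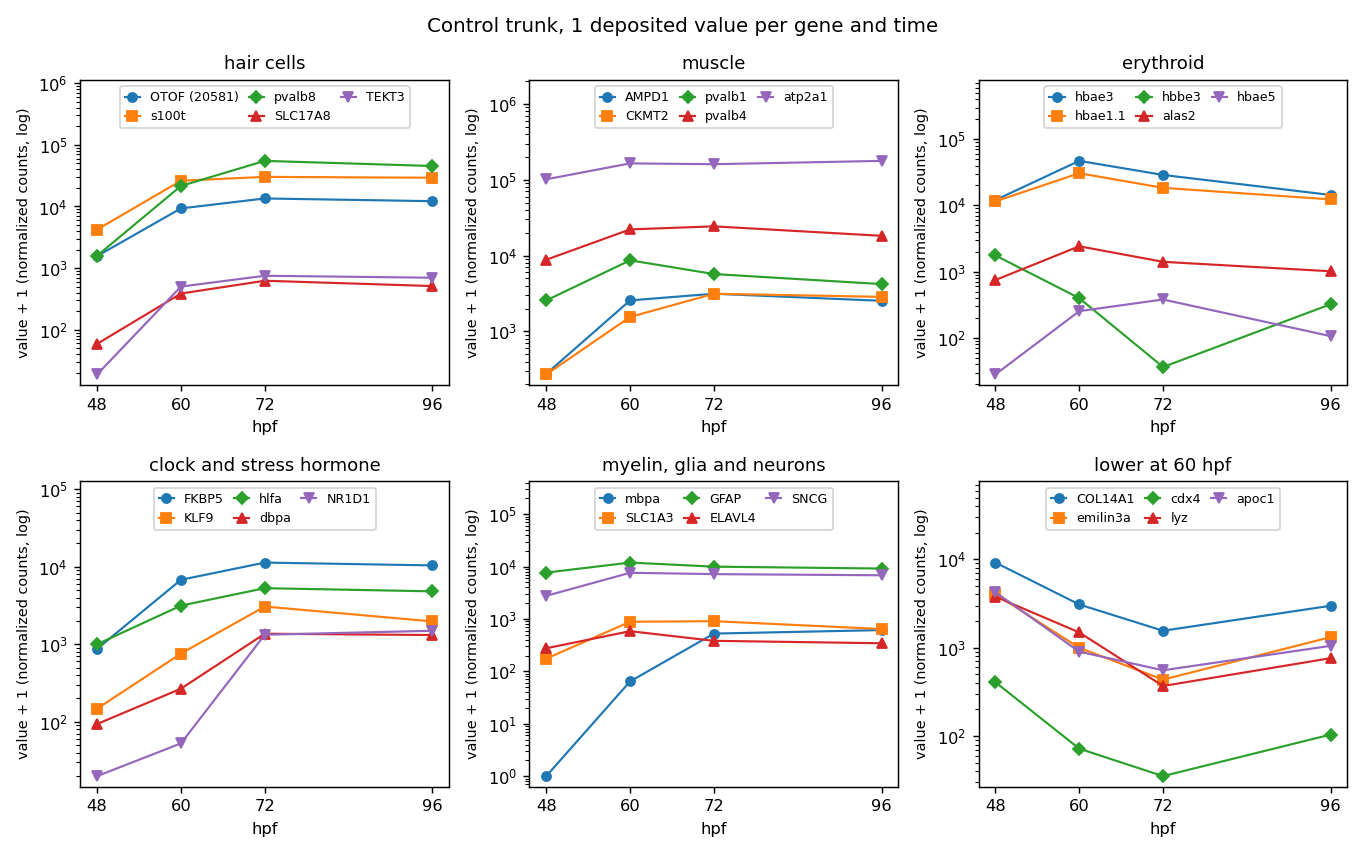
Control values plus 1 in normalized counts on log axes at 48, 60, 72 and 96 hpf for 5 genes in each of 6 groups, with 1 deposited value per point. The genes drawn were picked and do not stand for their whole lists, and pvalb8 and TEKT3 are outside the hair cell list. Those drawn for hair cells, muscle and clock or stress hormone stood higher at 60 hpf than at 48 hpf and stayed up later. Of the erythroid genes hbae3, hbae1.1 and alas2 were highest at 60 hpf. The 5 genes of the last panel were lower at 60 hpf and lowest at 72 hpf.

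In the skin, keratin genes were split between some that were higher at 60 hpf and others that were level. The list of epidermal genes had a median of -0.02, with 3 of 31 higher by 2-fold or more and 0 lower by 2-fold or more. The 3 were krt15, with 4172, 13341, 16013 and 12319 at 48, 60, 72 and 96 hpf, krt91, with 121517 at 60 hpf, against 56470.5 at 48 hpf, and col17a1a, the collagen that anchors basal cells to the basement membrane, with 89643 at 60 hpf, against 43847 at 48 hpf. The keratin gene krt5 had 347410.3 at 60 hpf, against 202867 at 48 hpf. The surface keratins krt4 and cyt1 had 3505630.0 at 60 hpf, against 3732111 at 48 hpf for krt4, and 1572829 at 60 hpf, against 1598006 at 48 hpf for cyt1, both within 1.1-fold.

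Ionocyte genes included some of the larger differences. Of 29 identifiers 6 were higher and 1 lower by 2-fold or more, beside 5.08% and 1.90% of all genes, and the median was 0.18. The sum over the list went the other way, with 42252 at 60 hpf and 44903 at 48 hpf. RHCG, the ammonia channel of acid-secreting ionocytes, was matched by more than 1 identifier. ENSDARG00000003203 had 46.2, 579.8, 1292 and 2331 at 48, 60, 72 and 96 hpf, and ENSDARG00000007080 had 15.5, 75.6, 1211 and 3628 at 48, 60, 72 and 96 hpf. The related ammonia transporter RHBG had 3175 at 60 hpf, against 977 at 48 hpf, the bicarbonate transporter SLC4A4 (ENSDARG00000013730) had 305 at 60 hpf, against 82.0 at 48 hpf, and foxi3a, a factor that specifies ionocytes in zebrafish, had 56.5 at 60 hpf, against 13.5 at 48 hpf. On the other side ca2, a carbonic anhydrase, had 2762 at 60 hpf, against 5898 at 48 hpf. Genes of mucous and secretory skin cells were below 0 in 9 of 10 cases, beside 50.1% of all genes. The 1 above 0 was a mucin, muc5.2, with 6045 at 60 hpf, against 4118 at 48 hpf. The lower genes included the mucin muc5.1, with 1217 at 60 hpf, against 3087 at 48 hpf. Also lower was AGR2, which aids the folding of mucins, with 847 at 60 hpf, against 1808 at 48 hpf.

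Melanophore genes were mostly lower. Of 17 melanophore identifiers 13 were below 0, the median was -0.27, and 1, pmelb, was lower by 2-fold or more, with 13.9 at 60 hpf, against 30.3 at 48 hpf. DCT, an enzyme of melanin synthesis, had 13275, 7681, 5031 and 4938 at 48, 60, 72 and 96 hpf, and MITF under ENSDARG00000003732, the master regulator of the lineage, had 700.1 at 60 hpf, against 999.8 at 48 hpf. Of 26 identifiers of yellow and reflecting pigment cells 15 were below 0, with a median of -0.08. Among them aox5, a marker of xanthophores, had 8083, 4369, 2696 and 3514 at 48, 60, 72 and 96 hpf. ltk, the receptor of the reflecting iridophore lineage, had 1399 at 60 hpf, against 631 at 48 hpf, the only member of that list beyond 2-fold.

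In the fin fold the actinodins differed little, while 15 of 24 genes of the list were below 0. and1, the other actinodin, had 1068482 at 60 hpf, against 1017055 at 48 hpf, and and2 stood 1.25-fold higher at 60 hpf. The list of 24 fin fold identifiers had a median of -0.17, with 1 higher by 2-fold or more and 2 lower by 2-fold or more. The sum, to which the actinodins contribute most, was 3950800.0 at 60 hpf and 3542038 at 48 hpf. COL14A1 (ENSDARG00000005762), a fibril-associated collagen, had 9188, 3083, 1553 and 2980.5 at 48, 60, 72 and 96 hpf, and FREM2 under ENSDARG00000076856, a basement membrane protein whose mutants in zebrafish have fin blisters, had 54974 at 60 hpf, against 99202 at 48 hpf. hoxd13a, a Hox gene of distal appendages, had 1869 at 60 hpf, against 3004 at 48 hpf. All 3 were lower at 60 hpf.

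Among collagens and matrix assembly genes 2 of 47 identifiers were higher by 2-fold or more and 1 lower by 2-fold or more, with a median of -0.01 and a sum of 5921991 at 60 hpf and 5494819 at 48 hpf. LOX, the oxidase that crosslinks collagen, had 1386, 6102, 12149 and 10106 at 48, 60, 72 and 96 hpf. col1a1a, a chain of fibrillar collagen I and the gene with the largest mean of both times, had 4146076 at 60 hpf, against 3744391 at 48 hpf. SERPINH1, the collagen chaperone, was lower under ENSDARG00000019949, with 60671 at 60 hpf, against 111177 at 48 hpf. POSTN, the matrix protein periostin of fibroblasts, had 116, 1906, 5491 and 5122 at 48, 60, 72 and 96 hpf, a 16.2-fold difference between 60 and 48 hpf. On the lower side were emilin3a, a matrix glycoprotein gene, with 4029, 996, 434 and 1316 at 48, 60, 72 and 96 hpf, optc, which encodes a small leucine-rich proteoglycan, with 330.3 at 60 hpf, against 1384 at 48 hpf, and thbs2a, a thrombospondin, with 229 at 60 hpf, against 921 at 48 hpf.

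Cartilage and bone genes had a median of 0.16, with 2 of 37 higher by 2-fold or more and 1 lower by 2-fold or more. The cartilage matrix genes MATN3 (ENSDARG00000069245) and acanb had 25354 at 60 hpf, against 9674 at 48 hpf for MATN3, and 514 at 60 hpf, against 221 at 48 hpf for acanb. The bone genes spp1, which encodes osteopontin, and SP7, a factor of osteoblasts, had 134 at 60 hpf, against 416 at 48 hpf for spp1, and 963 at 60 hpf, against 1670.4 at 48 hpf for SP7. The bone gene bglap was lower too, with 123 at 60 hpf, against 215 at 48 hpf. runx2b, a factor of osteoblast formation, was near its 48 hpf level, with 236 at 60 hpf, against 209.6 at 48 hpf. With own symbols alone the median of the list was 0.00057. In the list of notochord, floor plate and sheath genes the median was 0.06 over 37 identifiers and -0.15 over the 12 matched by their own symbol, the sum was 815566 at 60 hpf and 828718 at 48 hpf, and SHH under ENSDARG00000068567, the signal of floor plate and notochord, had 5543 at 60 hpf, against 5135 at 48 hpf.

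Genes of the tail bud, the growth zone that ends its work before this interval, were lower in 22 of 27 cases, with a median of -0.25. At least 2-fold lower were 2. cdx4, a caudal factor of the posterior body, had 406, 70.9, 34.2 and 103 at 48, 60, 72 and 96 hpf, and msgn1, a factor of presomitic mesoderm, had 28.2, 7.52, 13.3 and 11.9 at 48, 60, 72 and 96 hpf. LIN28A (ENSDARG00000016999), an RNA-binding protein of early developmental timing, had 1069, 593, 401 and 606 at 48, 60, 72 and 96 hpf, and PRTG, protogenin, a membrane protein of early embryonic tissue outside the list, had 796, 206, 133 and 120.1 at 48, 60, 72 and 96 hpf. ALDH1A2, which makes retinoic acid, was the only member at least 2-fold higher, with 675 at 60 hpf, against 306 at 48 hpf. Of 17 posterior Hox identifiers 15 were below 0, with a median of -0.19 and none beyond 2-fold. HOXC13 (ENSDARG00000070353) had 19658 at 60 hpf, against 21744 at 48 hpf.

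Genes of cell division shared 1 direction. All 42 tested identifiers of a mitosis list were below 0, beside 50.1% of all genes, their median log2 ratio was -0.52, and none reached 2-fold. Ratios ran from -0.79 to -0.07. mki67, a protein of dividing cells, had 43053, 28549, 24864 and 26069.6 at 48, 60, 72 and 96 hpf. CCNB1, the mitotic cyclin B1, had 7465, 5081, 4012 and 4200.5 at 48, 60, 72 and 96 hpf, and plk1, a mitotic kinase, had 12266, 8796, 5843 and 6053 at 48, 60, 72 and 96 hpf. In all 42 the highest of the 4 control values was that of 48 hpf, which 38.0% of all genes share.

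DNA replication genes showed the same direction. All 43 identifiers were below 0, with a median of -0.42, and none reached 2-fold. PCNA, the sliding clamp of replication, had 31698, 24458, 21659 and 22899 at 48, 60, 72 and 96 hpf, MCM5, a helicase subunit, had 6741 at 60 hpf, against 8598 at 48 hpf, and RRM2 under ENSDARG00000078069, which makes deoxynucleotides, had 9327 at 60 hpf, against 15171 at 48 hpf. Summed over the list the values were 154367 at 60 hpf and 207115 at 48 hpf, and for mitosis 253074 at 60 hpf and 363642 at 48 hpf. Of 55 splicing and chromatin identifiers 45 were below 0 with a median of -0.19. In 16 genes of cell cycle exit the median was -0.01, with 8 above 0 and 8 below. GADD45B under ENSDARG00000027744, a stress-induced gene, was the only one beyond 2-fold, with 2871 at 60 hpf, against 1192 at 48 hpf. The kinase inhibitor genes cdkn1a and cdkn1ca had 1050.0 at 60 hpf, against 738 at 48 hpf for cdkn1a, and 3440.0 at 60 hpf, against 4923 at 48 hpf for cdkn1ca.

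**Figure D5:**
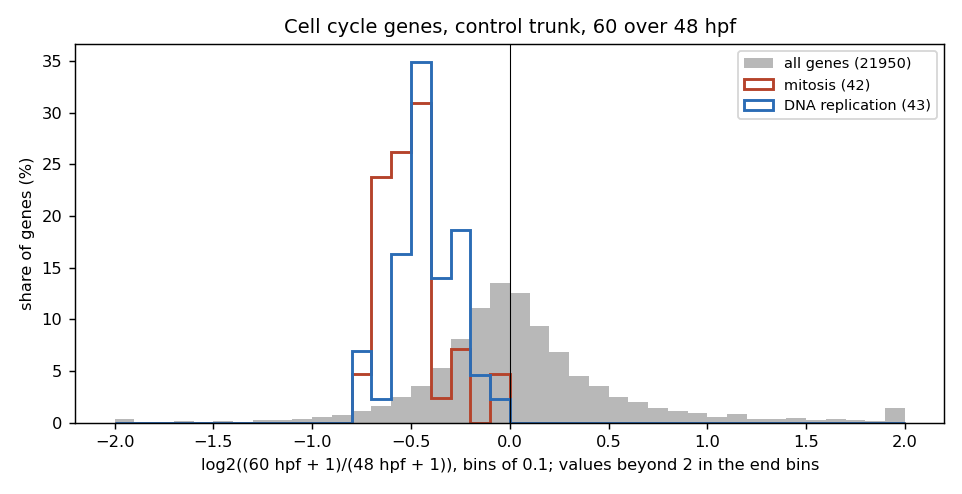
Share of genes in percent in each bin of the log2 ratio of 60 over 48 hpf, for all 21950 genes in grey, 42 mitosis identifiers in red and 43 DNA replication identifiers in blue. Both lists lie wholly below 0, with medians of -0.52 and -0.42, while all genes centre on 0.

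Ribosome genes were slightly and evenly higher. Of 64 ribosomal protein identifiers 61 were above 0, with a median of 0.13, and of 42 ribosome assembly identifiers 38, with a median of 0.15. RPL3, a protein of the large subunit, had 146118, 167961, 218752 and 204311 at 48, 60, 72 and 96 hpf. None of either list had its highest control value at 60 or 48 hpf. Proteasome genes were below 0 in 32 of 40 cases, with a median of -0.27. Of the 8 above 0 the highest ratio was that of the activator PSME1, with 1387 at 60 hpf, against 712 at 48 hpf. Of 35 genes of motile cilia and ciliary transport 32 were below 0, with a median of -0.26, and TEKT3 was the only one beyond 2-fold. Respiratory chain genes had a median of 0.07 over 71 identifiers.

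Targets of the stress hormone cortisol, which acts through the glucocorticoid receptor, were above 0 in 16 of 20 cases. Of 20 identifiers 5 were higher and 0 lower by 2-fold or more, beside 5.08% and 1.90% of all genes, and the median was 0.41. FKBP5, a chaperone partner of the receptor, had 871, 6785, 11324 and 10412 at 48, 60, 72 and 96 hpf, and KLF9, a zinc finger factor, had 147, 758, 3068 and 1973 at 48, 60, 72 and 96 hpf. At 60 hpf FKBP5 was 7.78-fold and KLF9 5.13-fold above 48 hpf. TAT, an aminotransferase of tyrosine, had 121, 308, 5247 and 8076 at 48, 60, 72 and 96 hpf, so that its larger step followed between 60 and 72 hpf. CEBPD (ENSDARG00000087303), a transcription factor, had 6284 at 60 hpf, against 2757 at 48 hpf. These 4 are among the largest ratios of the list. Other members differed less, such as tsc22d3, with 5764 at 60 hpf, against 4211 at 48 hpf. HSD11B2 had 713 at 60 hpf, against 540 at 48 hpf, and 4 members of the list were below 0.

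Circadian clock genes included some of the larger differences. Of 48 identifiers 6 were higher and 0 lower by 2-fold or more, beside 5.08% and 1.90% of all genes, and the median was 0.16. The 6 belong to nuclear receptors and the PAR bZIP family, which act on the clock's output or its second loop. nr1d2a had 402, 1630.1, 3895 and 2566 at 48, 60, 72 and 96 hpf, hlfa had 1001, 3150.5, 5294 and 4819 at 48, 60, 72 and 96 hpf, and dbpa had 92.6, 267, 1367 and 1316 at 48, 60, 72 and 96 hpf. NR1D1 had 18.9, 51.7, 1327 and 1493 at 48, 60, 72 and 96 hpf, with the larger step after 60 hpf. Other members of these families differed less, such as tefa of the PAR bZIP family, with 6739.6 at 60 hpf, against 6560.4 at 48 hpf, and NR1D2 under ENSDARG00000009594, with 5504 at 60 hpf, against 3945 at 48 hpf. Of the repressors of the core loop, PER1 under ENSDARG00000012499 had 1694, 1777, 4773 and 4681 at 48, 60, 72 and 96 hpf, PER3 had 523, 498, 1367 and 1133 at 48, 60, 72 and 96 hpf, and PER2 had 312 at 60 hpf, against 309 at 48 hpf. The samples were kept in the dark, and 48, 72 and 96 hpf fall on the same hour of the day, whereas 60 hpf does not.

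Signalling pathways of patterning were near balance. The medians were 0.04 for 26 identifiers of FGF, 0.06 for 48 of Wnt, -0.10 for 30 of Notch, -0.01 for 16 of Hedgehog and 0.07 for 37 of BMP and TGF-beta signalling. The FGF feedback gene DUSP6 had 30292 at 60 hpf, against 31188 at 48 hpf. A few ligands differed more. gdf6b, a BMP ligand, had 192, 44.0, 16.5 and 60.6 at 48, 60, 72 and 96 hpf, and GDF5, a BMP ligand of joint formation in mammals, had 6.73, 33.0, 101 and 105 at 48, 60, 72 and 96 hpf. In the retinoic acid list 2 of 24 were higher by 2-fold or more and 1 lower by 2-fold or more. CYP26B1, which degrades retinoic acid, had 4126 at 60 hpf, against 2510.3 at 48 hpf, while CYP26A1, of the same family, had 227 at 60 hpf, against 406 at 48 hpf.

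Lipid and xenobiotic genes were mostly steady. Of 28 sterol and fatty acid synthesis identifiers 23 were above 0, with a median of 0.20. The lipoprotein receptor gene ldlra had 1348 at 60 hpf, against 521 at 48 hpf. apoc1, an apolipoprotein also made by the yolk layer in zebrafish, was lower, with 4248, 900.4, 554 and 1048 at 48, 60, 72 and 96 hpf. Of 22 genes of the aryl hydrocarbon receptor and drug metabolism none was higher by 2-fold or more and 1 was lower by 2-fold or more, abcc2, an export pump, with 53.7 at 60 hpf, against 170.2 at 48 hpf. The receptor gene ahr2 itself had 14083 at 60 hpf, against 13506 at 48 hpf.

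The remaining lists gave the following. The smooth muscle, pericyte and fibroblast list had a median of 0.24 and a sum of 362490.2 at 60 hpf and 373684 at 48 hpf. Of its 30 identifiers 4 were higher and 1 lower by 2-fold or more, beside 5.08% and 1.90% of all genes. Beside POSTN they held TAGLN under ENSDARG00000045408 and acta2, smooth muscle actin, with 347 at 60 hpf, against 126 at 48 hpf. TAGLN under ENSDARG00000033466 was lower, with 33062 at 60 hpf, against 40858 at 48 hpf. PDGFRA differed less, with 5517 at 60 hpf, against 4870 at 48 hpf. In this list 22 log2 ratios were above 0 and 8 below. The median was 0.18 for 28 genes of matrix proteases and their inhibitors, where mmp30, a metalloproteinase, had 379, 846, 2859 and 3459 at 48, 60, 72 and 96 hpf. It was 0.05 for 29 genes of hypoxia and glycolysis and -0.10 for 34 of heat shock and folding. Genes of the pronephric duct and cloaca had a median of 0.12 over 14 identifiers, with 9 above 0 and 5 below. By 2-fold or more 3 were higher and 1 lower, beside 5.08% and 1.90% of all genes. PAX2 (ENSDARG00000028148), a kidney and hindbrain factor, had 347 at 60 hpf, against 106 at 48 hpf. The 1 lower was CDH17, with 13.4 at 60 hpf, against 28.8 at 48 hpf. Lists of organs in front of the resection plane had medians below 0, except that of the brain with own symbols alone (0.032 over 3 identifiers). The medians were -0.78 for 9 eye genes, -0.69 for 6 of the hatching gland and -0.14 for 5 of the heart. For 14 genes of exocrine pancreas and gut the median was -0.27, for 21 of the brain -0.16 and for 20 of yolk and liver -0.07. Several of these genes are also expressed outside those organs.

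The largest differences of all included genes outside these lists. cbln18 and cbln20, of the secreted cerebellin family, had 1.96, 779.7, 2459 and 1886 at 48, 60, 72 and 96 hpf for cbln18, and 38.4, 824, 2276 and 1879.8 at 48, 60, 72 and 96 hpf for cbln20. fndc7b, a gene with fibronectin type III repeats, had 539, 13812, 27589.6 and 28461 at 48, 60, 72 and 96 hpf. Its relatives fndc7rs1, fndc7rs2, fndc7rs3 and fndc7rs4 were higher by log2 ratios of 3.37, 2.27, 3.54 and 3.25. UCP1, an uncoupling protein of the inner mitochondrial membrane, had 106, 1994, 7928 and 10038 at 48, 60, 72 and 96 hpf, and anxa5a, an annexin, had 107, 2135, 4528 and 3954 at 48, 60, 72 and 96 hpf. eevs, an enzyme that makes the sunscreen compound gadusol in fish, had 20.1, 297, 644 and 756 at 48, 60, 72 and 96 hpf. All of these stayed above their 48 hpf value at 72 and 96 hpf. ponzr3 and ponzr4 had 32.3, 872, 433 and 152 at 48, 60, 72 and 96 hpf for ponzr3, and 19.7, 912, 291 and 95.0 at 48, 60, 72 and 96 hpf for ponzr4, and were highest at 60 hpf, while ponzr1, of the same family, had 234 at 60 hpf, against 169.6 at 48 hpf.

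Genes with the lowest ratios outside the lists included vwa5b2, with 97.6, 6.21, 2.77 and 3.57 at 48, 60, 72 and 96 hpf, and CYB561A3 (ENSDARG00000028257), with 398, 89.1, 27.4 and 83.7 at 48, 60, 72 and 96 hpf. oacyl, whose product belongs to the acyltransferases, had 3725, 897, 223 and 779 at 48, 60, 72 and 96 hpf, and lamb3, a laminin chain of basement membranes, had 158, 34.4, 17.8 and 63.2 at 48, 60, 72 and 96 hpf. The hatching enzyme gene he1.3, which is a member of the hatching gland list, had 159, 24.4, 11.1 and 23.9 at 48, 60, 72 and 96 hpf. All 5 were lower at every later time than at 48 hpf.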

How the data were processed

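Each of the 8 conditions, with 4 pools of 50 larvae, was read in 1 direction in 100 bp on an Illumina instrument. Per the submitters' processing notes the tools were FastQC, Trimmomatic, Salmon and DESeq2, on the genome build Zv9, and the sources used here state no versions. What the authors deposited are signal values, 1 per gene and condition, which the labels call normalized counts averaged over the pools. These numbers are not whole reads, so depth is unknown and counting errors cannot be stated. Reads that fit near-identical copies are divided among them by Salmon.

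Log2 ratios were taken with a pseudocount of 1, which understates differences of low genes, for genes averaging 10 or more over all 8 columns. Printed folds carry the same pseudocount. No test was run, since each group has 1 value, and a gene counts at 2-fold or more. The calculation was tested on simulated data. Python 3.11.15, pandas 2.3.3, numpy 2.4.6 and matplotlib 3.10.9 were used.

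Symbols came from a table of identifiers, in which 18028 of 24345 had one. Of 1883 symbols in 55 lists 380 were unmatched, 508 identifiers matched by their own symbol and 1038 by a symbol in capitals that lacks the paralog letter, so which paralog is meant can be uncertain. An identifier is printed beside a symbol shared by several. The genes and lists were chosen with earlier results of these data known. Genes named were the 20 highest and 20 lowest ratios with a symbol and a mean of 50 or more, key members of lists, the 4 largest ratios per list, members beyond 4-fold and the 10 most abundant genes. Some were left out for length. CHRNA9, TMC1, CDH23, cldnb, SOX2, ponzr1, HBE1, fndc7rs1 to fndc7rs4, 1 gene without a symbol and some further list members were added after their values were seen. A few qualifying genes are not reported here. Promoters and coordinates were not used here. Alternatives were other pseudocounts, filters, fold sizes, scalings and matching by own symbols alone.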

Additional observations from a re-analysis of the deposited data

How the results depend on the processing

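No paired analysis was possible because each condition has 1 deposited value and no replicate columns, and for the same reason no replicate could be left out. Against 1114 genes at least 2-fold higher at 60 hpf and 418 at least 2-fold lower, a pseudocount of 10 gave 238 lower, no filter on low values 869 lower, a mean of 50 or more 711 higher and 169 lower, a size of 1.5-fold 2377 higher and 1368 lower, and a size of 4-fold 282 higher and 74 lower. The counts under a pseudocount of 0.5, quantile normalization, equal totals, centring on the median and the per-sample values stayed within 1.5 times. Leaving out genes listed at 0, an alternative chosen after seeing the data, gave 1071 higher and 384 lower. Scaling moved the median of all genes by at most 0.02, and under the alternatives run no named gene at least 2-fold apart turned its direction, while PER2, near 0, was below 0 under quantile normalization. List medians moved by 0.1 or more mainly with members matched by own symbols alone, a smaller set that also differs in which genes it holds. They were then -0.18 for Hedgehog signalling, 0.00057 for cartilage and bone, -0.15 for cell cycle exit, 0.29 for the circadian clock, 1.46 for erythroid genes, -0.15 for notochord and floor plate, 0.032 for the brain, -0.93 for the hatching gland, -0.16 for hypoxia, 0.34 for ionocytes, 1.26 for hair cells, 0.031 for matrix proteases, -0.37 for melanophores, 0.70 for muscle calcium and energy, 0.088 for myogenic regulators, -0.48 for neural progenitors, -0.12 for neurons, -0.015 for the pronephric duct, 0.39 for retinoic acid, 0.18 for slow muscle, -0.35 for the tail bud and -0.36 for yolk and liver. Of these values, those of Hedgehog signalling and the pronephric duct rest on 1 identifier each and are no medians of a group. Those of cell cycle exit, the brain, the hatching gland and melanophores rest on 3 each. With no filter the medians were -0.12 for exocrine pancreas and gut, -0.34 for the eye and 0.23 for slow muscle. Under a pseudocount of 10 they were -0.16 for exocrine pancreas and gut and -0.58 for the eye, and with a mean of 50 or more -0.47 for exocrine pancreas and gut and -0.44 for the hatching gland. Exocrine pancreas and gut also came to -0.12 with the filter on the 48 and 60 hpf columns only and to -0.41 under quantile normalization, which gave -0.35 for macrophages and neutrophils and -0.40 for the tail bud. Beyond the construction of each alternative the cause was not tested. Low values, where differences were most frequent, rest on few reads of unknown number.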

Other observations

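Certain genes stood apart at 60 hpf and were back near their 48 hpf value at 72 hpf, within 1.5-fold of it. Among the 21950 genes tested, 1114 were at least 2-fold higher at 60 hpf and 418 lower. These counts carry no further limit on mean, symbol or 72 hpf value. How many of these genes pass the same limits on mean and symbol was not counted, so no share is given. With a symbol and a mean of 50 or more over both times, 21 returning genes were at least 2-fold higher and 8 lower. Among them, the LIM homeobox genes lhx1a and lhx5, which mark classes of spinal interneurons, had 194, 429.7, 189 and 139 at 48, 60, 72 and 96 hpf for lhx1a, and 104, 229.9, 71.7 and 89.3 at 48, 60, 72 and 96 hpf for lhx5. OTP under ENSDARG00000014201, another homeobox factor, had 77.8, 165, 68.7 and 96.6 at 48, 60, 72 and 96 hpf, and PTPRZ1 under ENSDARG00000051814, a receptor phosphatase of glia and neurons, had 2275, 5590.2, 3241 and 2090.0 at 48, 60, 72 and 96 hpf. DGKG, a diacylglycerol kinase, had 28.2, 342, 26.7 and 24.3 at 48, 60, 72 and 96 hpf. RGS5 under ENSDARG00000002644, a G protein regulator of pericytes, had 146, 34.5, 177 and 32.1 at 48, 60, 72 and 96 hpf, so that it was low at 60 and 96 hpf and high at 48 and 72 hpf. With 1 value per time it is unknown whether a single pool carries these values.

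Some genes were listed at 0 at 1 time and had a high value at the other. A listed 0 can be a failed estimate and need not mean absent RNA. At 60 hpf 5 genes were listed at 0 with 100 or more at 48 hpf, and 5 were listed at 0 at 48 hpf with 100 or more at 60 hpf. ERLEC1 (ENSDARG00000086309), a lectin of the endoplasmic reticulum, had 1023, 0, 0 and 239.9 at 48, 60, 72 and 96 hpf, and MRPS22, a mitochondrial ribosomal protein, had 0, 821, 908 and 0 at 48, 60, 72 and 96 hpf. No fold is given against a listed 0. Among genes at least 2-fold apart, 446 of those higher at 60 hpf and 198 of those lower carry no symbol or only a clone name. ENSDARG00000057408, without a symbol, had 317, 17544, 43998 and 38104 at 48, 60, 72 and 96 hpf, one of the largest differences at high level in the table.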
